A study of Homo sapiens and Mus musculus with 16 samples.

Results

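Of 68074 accessible regions in the KPC primary tumor list, 62280 overlapped a region of the liver mets list, and 5246 of these shared regions (8.42%) ranked at least 20 percentile points lower in mets. They are called weakened regions here. They were selected on the deposited score itself: each tumor region was paired with the mets region that overlapped it over the most bases (at least 1), the score was turned into a percentile among the 62280 pairs in each list, and pairs with a mets minus tumor percentile of -20 or lower were kept. The fall in rank is therefore how the regions were chosen and not a result. At the opposite end, 4797 shared regions (7.70%) ranked at least 20 points higher in mets. These strengthened regions serve as a comparison.

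The lists come from ATAC–seq, in which a transposase cuts and tags open chromatin, on 16 samples in 4 groups of 4 replicates. KPC primary tumor and KPC liver mets are untreated mouse pancreatic adenocarcinoma lines labelled WT, kept in DMEM with 10% FCS. The study describes them as matched lines from autochthonous KPC mice, a genetically engineered model of pancreatic cancer. HPAF-II control (Cas9) and HPAF-II HNF4G-KO are cultures of an established human pancreatic adenocarcinoma line in which HNF4G, a nuclear receptor gene, was left intact or was knocked out. Each group has 1 list standing for its 4 replicates, so no difference below has a replicate check, and the 95% intervals given in parentheses after a share or a difference cover counting error only. The labels do not tie the replicates to separate animals or clones, and how many reads stand behind a list is not known. The promoters of all 7 ductal or epithelial markers examined (Krt7, Krt8, Krt18, Krt19, Epcam, Cdh1 and Sox9) and of all 16 housekeeping genes were accessible in both KPC lists. Of 10 hepatocyte markers, Apob and Ttr had an accessible promoter in the tumor list and Apob alone in the mets list. In both lists the count was 2 of 7 for fibroblast, 1 of 6 for immune, 2 of 5 for endothelial, 1 of 5 for acinar and 0 of 4 for islet markers.

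An accessible region is a short stretch of DNA from which nucleosomes are displaced. Promoters of active genes tend to be open in most cell types. Enhancers, which lie farther from start sites, are opened in a cell-type-specific way by transcription factors such as FOXA and GATA proteins, AP-1 (FOS and JUN dimers) and the TEAD partners of YAP. CTCF binds insulators and loop anchors, many of which are shared between cell types. In pancreatic cancer, FOXA, GATA and HNF4 factors are associated with the classical epithelial state.

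The windows printed here are single examples of weakened regions. Each is the central 300 bp of a weakened region on the plus strand of mm10, read from RefSeq's GRCm38.p6 assembly, with every match to the 20 consensus sequences searched in capitals. The first lies in an intron of Chchd3 and had the largest fall among regions that paired 1 to 1 and whose window overlaps no annotated exon. The second, in an intron of Nfkb1, had the largest fall among promoter regions that paired 1 to 1. The others lie near genes of pancreas identity (Gata4, Pdx1) and of the ETS family (Ets2). They were taken only from windows that held a searched sequence. They show how such sequences are arranged and not how common they are in weakened regions.
Chchd3 window, chr6:32980962-32981261: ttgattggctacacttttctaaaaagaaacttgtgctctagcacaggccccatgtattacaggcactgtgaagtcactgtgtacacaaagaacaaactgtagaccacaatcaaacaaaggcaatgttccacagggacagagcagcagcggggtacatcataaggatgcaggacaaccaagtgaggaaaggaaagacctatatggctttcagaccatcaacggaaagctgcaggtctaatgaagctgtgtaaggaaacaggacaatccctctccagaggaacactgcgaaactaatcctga
Nfkb1 window, chr3:135594520-135594819: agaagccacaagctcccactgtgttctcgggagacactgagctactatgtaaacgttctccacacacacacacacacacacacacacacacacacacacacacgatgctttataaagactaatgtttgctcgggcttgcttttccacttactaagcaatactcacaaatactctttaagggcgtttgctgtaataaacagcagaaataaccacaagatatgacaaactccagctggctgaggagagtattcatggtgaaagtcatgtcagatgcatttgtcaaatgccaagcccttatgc
Gata4 window, chr14:63281897-63282196: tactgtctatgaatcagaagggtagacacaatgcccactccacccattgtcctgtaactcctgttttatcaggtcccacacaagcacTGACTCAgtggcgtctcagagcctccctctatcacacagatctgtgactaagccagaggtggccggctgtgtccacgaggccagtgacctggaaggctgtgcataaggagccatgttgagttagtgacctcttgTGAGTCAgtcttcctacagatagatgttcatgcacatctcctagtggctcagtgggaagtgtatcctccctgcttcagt
Pdx1 window, chr5:147285051-147285350: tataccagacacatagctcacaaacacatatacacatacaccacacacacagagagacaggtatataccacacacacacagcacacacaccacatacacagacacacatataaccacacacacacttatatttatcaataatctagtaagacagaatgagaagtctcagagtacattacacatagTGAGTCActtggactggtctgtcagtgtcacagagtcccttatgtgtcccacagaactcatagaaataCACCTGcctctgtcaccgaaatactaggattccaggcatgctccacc
Ets2 window, chr16:95716352-95716651: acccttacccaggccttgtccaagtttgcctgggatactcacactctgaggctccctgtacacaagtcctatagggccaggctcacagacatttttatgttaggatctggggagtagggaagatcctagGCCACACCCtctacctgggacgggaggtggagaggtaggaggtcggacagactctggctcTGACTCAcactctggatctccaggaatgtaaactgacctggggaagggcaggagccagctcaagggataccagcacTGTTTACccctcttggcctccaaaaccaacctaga

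The Chchd3 and Nfkb1 windows held none of the 20 sequences. The Gata4 window, 10126 bp from a Gata4 start site, held the AP-1 sequence once on each strand (TGACTCA and TGAGTCA). The Pdx1 window, 15056 bp from a start site of this pancreatic regulator, held AP-1 and CACCTG, the opposite strand of CAGGTG, which ZEB and E2A proteins bind. The Ets2 window, 435 bp from a start site, held a KLF sequence (GCCACACCC), AP-1 and the FOXA sequence TGTTTAC. A match to these letters describes the window and is not a binding site.

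The change in rank ran from -96.5 to -20.002 points, with a median of -28.1 (quartiles -35.5 and -23.3). At the median a weakened region stood at percentile 55.8 in the tumor list and 22.7 in the mets list. The fall was at least 30 points in 2203 regions (41.99% of the weakened), at least 50 in 321 (6.12%) and at least 70 in 25. In mets, 1304 weakened regions (24.9%) stood at percentile 10 or lower, where 6239 of all shared regions stood. A low rank in mets follows in part from how the regions were chosen. The middle of the tumor list contributed the most, with 15.5% (14.6 to 16.4) of shared regions weakened at tumor percentiles 40 to 50 and 2.85% (2.47 to 3.30) at percentiles 90 to 100, where 178 of 6236 regions were weakened. A region below percentile 20 cannot enter at all. The last regions inside the threshold included one 168 bp from an Arap1 start site (50.2 to 30.2, a change of -20.003) and one near Arid1b (23.2 to 3.20, a change of -20.002). The first outside included one near Rexo4 (71.9 to 51.9, a change of -19.998) and one 105733 bp from Gata6 (87.6 to 67.7, a change of -19.998).

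**Figure D1:**
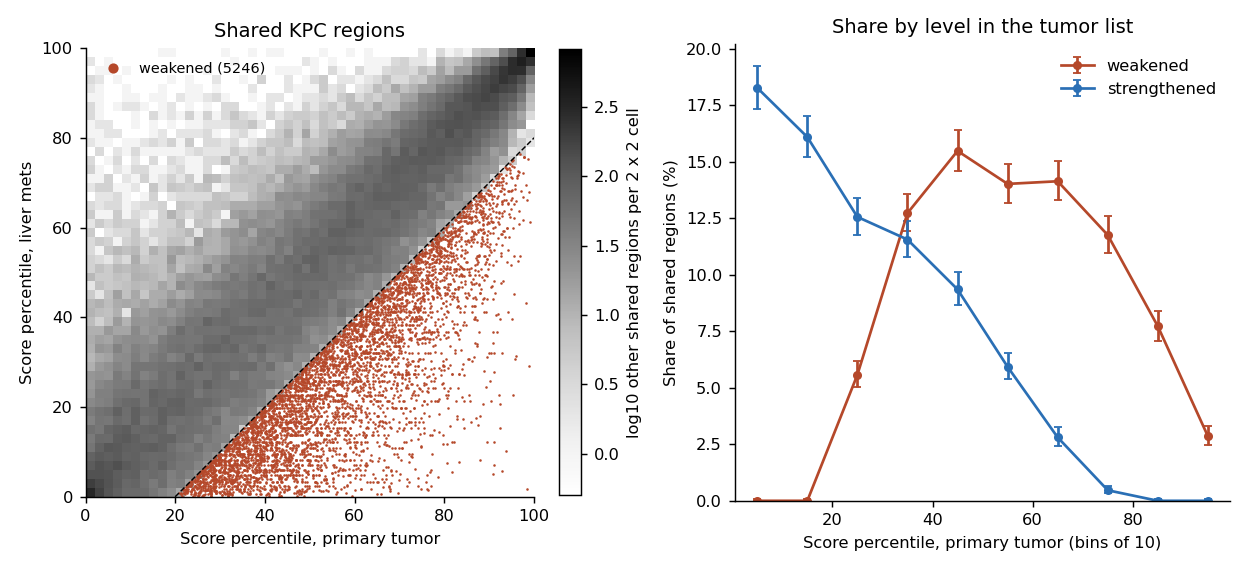
Left, score percentile in the primary tumor list (x axis) against the liver mets list (y axis) for all shared regions; the 5246 weakened regions are colored points below the dashed threshold line and the other shared regions are shaded grey by density. Right, percent of shared regions weakened or strengthened per 10 tumor percentiles with Wilson 95% intervals; the weakened share peaks at 15.5% at percentiles 40 to 50 and is 2.85% in the top 10.

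Weakened regions were also narrower in mets. Their median width was 550 bp in the tumor list and 357 bp in the mets list, against 546 and 480 bp over all shared regions. The median ratio of mets to tumor width was 0.717 for weakened, 0.934 for all shared and 1.16 for strengthened regions. Of the weakened regions 96.4% were narrower in mets, compared with 68.9% of all shared regions. Width comes from the same calls as the score and is given as a description. The centers moved by a median of 31 bp, against 24.5 bp over all shared regions.

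Weakened regions lay less often at promoters than the other shared regions. Within 1 kb of an annotated start site were 1072 of them, or 20.4% (19.4 to 21.5), compared with 29.5% (29.1 to 29.9) of the shared regions that were not weakened. The difference was -9.05 percentage points (-10.2 to -7.88). The share was lower still among strengthened regions, at 14.1% (13.1 to 15.1). Along the scale of change the promoter share was 15.3% (11.7 to 19.6) where the fall was at least 50 points, 23.2% (21.7 to 24.7) between -30 and -20 and 33.9% (33.2 to 34.6) between -10 and 0, the highest of the 10 intervals of change. By their centers, 51.4% of weakened regions were intronic, 36.8% intergenic and 11.9% exonic, against 46.1%, 38.3% and 15.7% of all shared regions. The promoter difference was -11.4 points among regions that paired 1 to 1 in both lists, and -6.31 points when the other regions were reweighted to the tumor percentiles and widths of the weakened ones.

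Some of the promoter regions were wide tumor regions that the mets list broke into pieces. Of the weakened regions, 417 overlapped more than 1 mets region, and 265 of these were at promoters. When such a region was paired with its highest-scoring piece instead of its longest overlap, 191 of the 417 still met the threshold and 226 did not. Falls of this kind included the Fbxo15 promoter (percentile 98.4 to 1.81), the promoter of the dynactin subunit gene Dctn2 (92.9 to 5.69), the promoter of the Wnt transducer Dvl3 (90.9 to 5.14) and a region 21648 bp from the acetyltransferase gene Ep300 (83.2 to 7.71). Among the 4819 weakened regions that paired 1 to 1, 802 (16.6%) were at promoters, and the largest falls described below come from these 1 to 1 regions.

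The central 300 bp of weakened regions had a median GC content of 47.3%, compared with 49.3% for the shared regions that were not weakened. Away from promoters the medians were 46% and 47.3%. At promoters the order was the other way round, with 63.3% in weakened and 60% in the other regions. Among regions at protein-coding promoters, 71.3% (68.3 to 74.2) of the weakened lay within 1 kb of the outermost annotated start of a gene, and the rest at internal starts only. The share was 75.8% (75.1 to 76.5) for the other shared promoter regions and 54.4% (50.04 to 58.8) for strengthened ones. Among promoter regions that paired 1 to 1, it was 65.97% for weakened, 74.8% for other and 50.2% for strengthened regions. A CpG ratio (observed over expected) of 0.6 or higher, a common mark of CpG island promoters, was found in 61.7% of weakened promoter regions, 61.6% of the others and 25.2% of the strengthened.

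**Figure D2:**
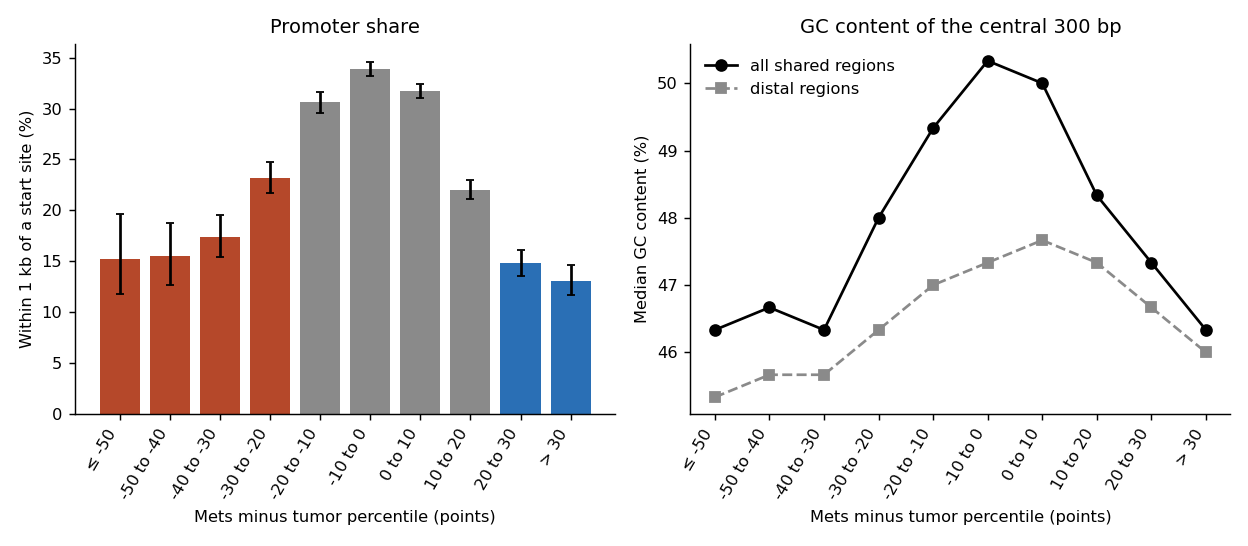
Left, percent of shared regions within 1 kb of a start site by mets minus tumor percentile in points (x axis), with Wilson 95% intervals; the share is highest, 33.9%, between -10 and 0 and lower toward both ends. Right, median GC content (percent) of the central 300 bp in the same intervals for all and for distal regions.

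Of the sequences searched, that of CTCF was the one most depleted in weakened regions among those found in over 1% of them. It was present in 58 weakened regions, or 1.11% (0.856 to 1.43), against 4.96% (4.78 to 5.14) of the shared regions that were not weakened and 3.75% (3.25 to 4.33) of the strengthened. Of the 321 regions with a fall of at least 50 points 0 held it, which allows a share of up to 0.935% (3 counts, taken as the limit for a count of 0). Seen from the other side, 2.01% of the 2885 shared regions with the CTCF sequence were weakened, and 8.73% of those without it. At tumor percentiles 40 to 60 the weakened share was 4.03% (2.85 to 5.67) with the sequence and 15.4% (14.8 to 16.1) without it, and at percentiles 60 to 80 it was 2.43% (1.28 to 4.55) and 13.3% (12.7 to 13.9). The difference was -3.85 percentage points (-4.16 to -3.49). It was -4.89 points away from promoters and -3.86 points against regions reweighted by tumor percentile, width and GC content. The weakened regions that did hold it included one 18941 bp from a start site of the chromatin gene Msl3 (percentile 43.9 to 3.20) and one in an intron of Kalrn (53.2 to 12.9).

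AP-1 (TGACTCA on either strand) was the most common of the 20 sequences. It was present in 1844 weakened regions, or 35.2% (33.9 to 36.5), in 29.8% (29.4 to 30.2) of the regions not weakened and in 35.7% (34.3 to 37.03) of the strengthened. The share was not highest at the largest falls. It was 29.9% where the fall was at least 50 points and 34.3% between -30 and -20, compared with 29.3% between -10 and 0, and in distal regions 33.8%, 40.7% and 38.6%. Over all distal regions it was 40.8% in weakened, 37.1% in not weakened and 37.98% in strengthened ones. The difference between weakened and other regions was 5.35 percentage points (4.01 to 6.70). The same letters written backwards, which keep the base composition, differed by 2.19 points, and against regions reweighted by tumor percentile, width and GC content the AP-1 difference was 0.193 points. In distal regions the weakened share was 8.89% (8.56 to 9.23) with no AP-1 sequence, 10.4% (9.92 to 10.9) with 1 and 9.29% (8.14 to 10.6) with 2.

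RUNX (TGTGGTTT) and SOX (CCATTGTTC) sequences were less frequent in weakened than in other regions and most frequent in strengthened ones. RUNX was found in 3.11% (2.67 to 3.61) of weakened, 4.42% (4.25 to 4.59) of not weakened and 7.75% (7.03 to 8.55) of strengthened regions. Within the weakened regions its share was 4.36% where the fall was at least 50 points, 4.37% between -50 and -40 and 2.56% between -30 and -20. The RUNX difference was -1.31 points and ranged from -1.95 to -0.468 over the alternatives. The SOX sequence was found in 5 weakened regions, or 0.0953% (0.0407 to 0.223), against 0.331% of the regions not weakened and 0.834% (0.613 to 1.13) of the strengthened. CAGGTG was in 16.4% (15.4 to 17.4) of weakened and 19.96% (19.6 to 20.3) of the other regions, and KLF (GGGCGTGGC or GGGTGTGGC) in 1.60% (1.30 to 1.98) and 2.71% (2.58 to 2.84). TEAD (ACATTCCA) was higher in weakened regions, at 3.51% (3.04 to 4.04) against 2.56% (2.44 to 2.70), and so was AGATAAG, the sequence of GATA proteins, at 5.36% (4.78 to 5.999) against 4.39% (4.22 to 4.56). These differences kept their sign in all 15 alternatives examined, but not their size. The TEAD difference was 0.944 points and ranged from 0.482 to 1.46. The GATA difference was 0.968 points and ranged from 0.467 to 1.53.

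Differences were smaller for the HNF4 and FOXA sequences. The HNF4 sequence CAAAGTCCA was in 54 weakened regions, or 1.03% (0.790 to 1.34), against 0.833% (0.761 to 0.911) of the others. FOXA (TGTTTAC) was in 6.16% (5.54 to 6.84) against 5.67% (5.49 to 5.86). The interval of the difference included 0 in both cases, and the FOXA difference changed sign in 3 of 15 alternatives. FOXA was more frequent in strengthened regions, at 8.11% (7.37 to 8.92), and these are counted among the others here. By change in rank, its share was 5.30% where the fall was at least 50 points and 6.57% between -30 and -20. Between -10 and 0 it was 5.01%. The interval of the difference also included 0 for HNF1, GRHL (AACCGGTT), CREB (TGACGTCA) and STAT (TTCCNGGAA). ETS (CCGGAAGT), SP1 (GGGGCGGGG), NRF1 (GCGCATGC), YY1 (AAGATGGC) and E-box (CACGTG) sequences were less frequent in weakened regions, for ETS in 0.515% (0.354 to 0.748) against 1.64% (1.54 to 1.75), and away from promoters the ETS shares were 0.335% and 0.517%. The CEBP sequence TTGCGCAA was in 0 of the 5246 weakened regions, which by the same limit allows up to 0.0572%, and in 0.0929% of the others.

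**Figure D3:**
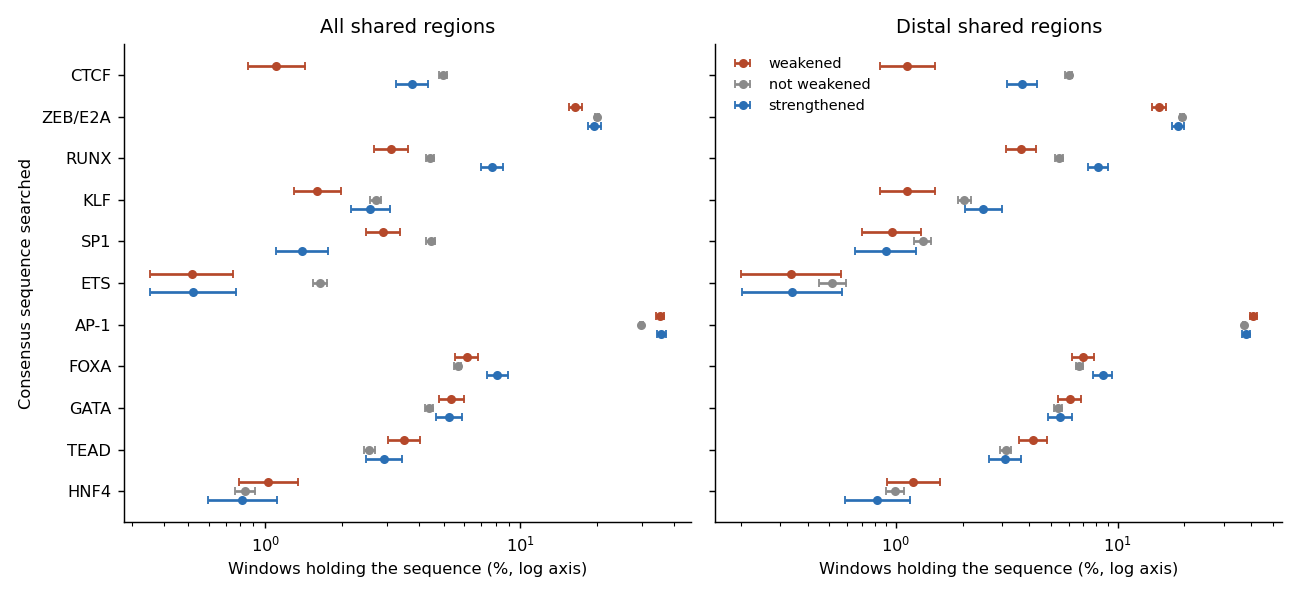
Percent of 300 bp windows holding each of 11 consensus sequences (log x axis) in weakened, not weakened (which include the strengthened) and strengthened shared regions, with Wilson 95% intervals, for all shared regions (left) and those over 1 kb from a start site (right). CTCF is at 1.11% in weakened against 4.96% in not weakened regions, and AP-1 at 35.2% in weakened and 35.7% in strengthened regions.

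Weakened regions were unevenly spread over the chromosomes. On chromosome 8, 468 of 3149 shared regions were weakened, or 14.9% (13.7 to 16.1), and 3.52% were strengthened. Chromosome 18 followed with 12.9% (11.5 to 14.5) and chromosome 16 with 10.7% (9.50 to 12.1). The lowest shares, apart from chromosome Y, were 4.81% (4.07 to 5.67) on chromosome 13, 5.65% (4.89 to 6.51) on chromosome 10 and 5.81% (5.05 to 6.68) on chromosome 9. Chromosomes 10 and 13 had the highest strengthened shares, 13.4% and 13.3%. Away from promoters 16.03% of shared regions were weakened on chromosome 8 and 5.54% on chromosome 13, and at promoters 12.1% and 2.75%. The shift was not limited to the weakened regions. The median change over all shared regions was -3.84 points on chromosome 8 and 3.62 on chromosome 13, and 19 of 21 windows of 5 Mb on chromosome 8 had a median below 0, against 0 of 22 on chromosome 13. The share of tumor regions with no counterpart in mets was 14.5% on chromosome 8 and 5.34% on chromosome 13. DNA copy number of the lines was not measured here and cannot be told apart from accessibility in these lists. With percentiles taken within each chromosome, 4770 of the 5246 regions (90.9%) over all chromosomes were still weakened. That ranking removes a chromosome-wide shift by construction. With it, the excess of the weakened share on chromosome 8 over the others went from 6.78 to 0.482 points.

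**Figure D4:**
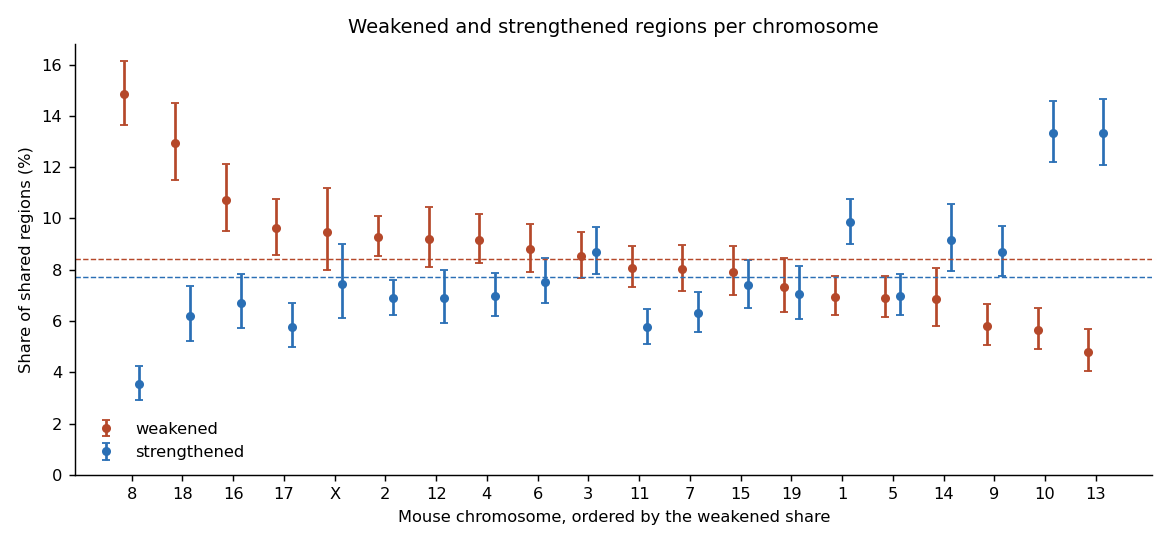
Percent of shared regions weakened and strengthened on each mouse chromosome, with Wilson 95% intervals; dashed lines mark the shares over all chromosomes, 8.42% and 7.70%. Chromosome 8 has the highest weakened share (14.9%), with 3.52% strengthened, and chromosome 13 a weakened share of 4.81%.

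Weakened regions had weakened neighbors more often than others did. The next shared region along the chromosome was weakened after 13.02% (12.1 to 13.96) of weakened regions and after 8.002% (7.78 to 8.23) of the others. The gap between the shares was not largest for close neighbors. They were 8.56% and 6.05% where the next region lay under 5 kb away. At 5 to 50 kb they were 13.6% and 8.72%, and over 50 kb 17.1% and 9.40%. Most stood alone, with 4000 single regions, 468 runs of 2 and 78 runs of 3. The longest run held 8 regions over 280440 bp (chr2:25634110-25914549) around Fcna, Lcn5, Obp2a, Bmyc, Sohlh1 and Kcnt1, with a median change of -30.04 points. A run of 5 with Tom1l1 as the nearest gene (chr11:90917954-91121762) had a median change of -55.5, and another run of 5 lay around Runx2 and Cdc5l (-28.05). Of the 80843 regions in the mets list 16355 were found in mets only, and 5794 of the tumor list were found in the tumor only. Regions found in mets only lay within 10 kb of 17.96% (16.9 to 19.02) of weakened, 21.4% (21.1 to 21.7) of the other and 25.04% (23.8 to 26.3) of strengthened regions. For regions found in the tumor only, the shares were 12.7% (11.9 to 13.7), 12.1% (11.8 to 12.4) and 9.76% (8.95 to 10.6).

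The largest falls among regions that paired 1 to 1 were mostly far from promoters. Of the first 10, 6 were intronic, 3 intergenic and 1 exonic, and 1 was at a promoter. An AP-1 sequence was held by 5 of them, and the other 5 held none of the 20 sequences. Over all regions with a fall of at least 50 points the AP-1 share was 29.9%. The region in the body of Mme, which encodes the cell-surface peptidase neprilysin, went from percentile 91.01 to 7.09. The region in an intron of Chchd3, a subunit of the mitochondrial cristae-organizing complex, went from 93.6 to 10.1. An intergenic region 22544 bp from Ing2, a reader of histone H3 lysine methylation, went from 87.96 to 8.28, and its window held FOXA, AP-1 and TEAD sequences together. A region 15782 bp from Arhgap6, a GTPase activating protein, went from 92.4 to 15.3, and one 37611 bp from the proprotein convertase gene Pcsk6 from 77.02 to 2.48. The remaining non-promoter regions of this group had their nearest coding start sites at Anxa1 (614547 bp away, 91.1 to 12.3), Mb21d2 (89.5 to 12.3), Tom1l1 (76.2 to 1.81) and the SUMO ligase gene Nsmce2 (78.6 to 4.36).

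Over all weakened coding promoter regions that paired 1 to 1, 65.97% had an outermost start of a coding gene within 1 kb. The 10 largest falls among them were mostly at internal starts, and 9 had no such outermost start within 1 kb. The exception was Bmyc, a Myc relative, whose promoter went from percentile 73.4 to 6.27. The region at an internal start of Nfkb1, the gene of the NF-κB subunit p50 and its precursor p105, went from 76.3 to 1.43 and narrowed from 837 to 233 bp. The nearest outermost start was 96459 bp away. Internal starts of Lcmt1, a methyltransferase of the phosphatase PP2A, went from 76.9 to 6.04, and of Hadha, of mitochondrial fatty acid oxidation, from 82.7 to 18.1. Kank1, a regulator of the actin cortex, went from 91.01 to 27.9, the Slit–Robo effector Srgap2 from 85.4 to 30.6 and the ubiquitin ligase Nedd4l from 68.3 to 4.93. Ugdh, which makes UDP-glucuronic acid, went from 55.7 to 1.94, the histone demethylase Kdm1b from 69.9 to 16.7 and the gastric proton pump gene Atp4a from 52.9 to 1.29.

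By gene, 6325 of 17543 coding genes with a shared region within 50 kb had at least 1 weakened region. Mllt3, a reader of acylated histones in the super elongation complex, had 7 of 15 shared regions weakened, and the calcium channel gene Cacna1a 7 of 24. Those with 6 were 2210011C24Rik (of 12), Il27ra, Palm3 and Rln3 (each of 13), Spire1 (of 14), Rbpms (of 15), Cfap61 (of 17) and Zfand3 (of 21). Il27ra, Palm3 and Rln3 had the same counts and the same median change. Their lowest and highest change (-29.2 and 14.98 points) were also those of 2210011C24Rik. Neighboring genes can count the same region. Of these 10 genes 6 are on chromosome 8.

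Across 50442 shared regions within 50 kb of a coding start site, 7.80% were weakened and 6.75% strengthened, and at 12476 coding promoters with a shared region, 960 genes (7.69%) had a weakened one. Beside this background, 20 gene lists with 470 genes found had weakened shares from 3.23% to 9.09%. The interval spanned 7.80% in 18 lists, lay above it in 0 and below it in 2. These 2 were epithelial junctions and keratins, with 8 of 248 (3.23%, 1.64 to 6.24), and cell cycle genes, with 9 of 230 (3.91%, 2.07 to 7.27). Mesenchymal and EMT genes had the highest share, 13 of 143 (9.09%, 5.39 to 14.9), with 0 of 13 promoters weakened, followed by pancreatic cancer drivers with 15 of 178 (8.43%, 5.17 to 13.4). These counts describe the lists and single out none of them.

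Among the 24 endoderm and pancreas transcription factors the count was 13 of 190 (6.84%, 4.04 to 11.4), with 19 regions strengthened. Of 19 promoters with a shared region 3 were weakened, among them those of Foxa3 (percentile 70.6 to 35.7, not paired 1 to 1) and Creb3l1 (26.7 to 5.69). Away from promoters, the largest falls were near Gata4 (74.1 to 29.03), Foxa2 (66.2 to 22.7, 35357 bp from a start), Pdx1 (53.2 to 12.7) and Foxa1 (56.5 to 21.3, 49318 bp from a start). At the Foxa1 promoter 1 region went from 66.4 to 64.2 and another, not paired 1 to 1, from 8.30 to 0.388, and neither met the threshold. Of 7 genes named whatever their values (Hnf4g, Hnf4a, Foxa1, Foxa2, Gata6, Prmt1 and Myc), Foxa1, Foxa2, Gata6 and Prmt1 had weakened regions within 50 kb, 5 of 56 (8.93%, 3.87 to 19.3) in all, and 0 of the 7 had one at the promoter. The Prmt1 region lay in the body of Irf3, 1107 bp from an Irf3 start and 15926 bp from a Prmt1 start. The Foxa1 region lay in the body of Mipol1. Hnf4g and Hnf4a each had 1 strengthened region, 4238 bp from an Hnf4g start (13.5 to 55.4) and 39581 bp from an Hnf4a start (44.5 to 72.5).

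In the epithelial list, more regions were strengthened (16) than weakened (8), and the median change was 2.18 points. Pkp3, which encodes a desmosomal plaque protein, had a weakened promoter region (75.2 to 46.2), and the keratin gene Krt19 a strengthened one. Regions 10924 bp from Krt18 and 12404 bp from Krt7 went from 49.5 to 12.6 (not paired 1 to 1) and from 43.02 to 10.9, and one 25102 bp from Ovol1, an epithelial repressor of EMT, from 55.9 to 20.01. Mesenchymal and EMT genes had 13 of 143 shared regions weakened and 13 strengthened, with a strengthened promoter region at S100a4. Weakened regions at 4126 to 37743 bp from a start site lay near the matrix gene Sparc (42.1 to 2.48), the N-cadherin gene Cdh2 (64.7 to 32.1), Col1a1 (36.9 to 8.58) and Twist2 (78.9 to 53.99).

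Over the 20 lists, counting a gene once in each list that holds it, 34 of 385 promoters with a shared region were weakened and 16 strengthened, beside 7.69% weakened over all coding promoters. The count was 0 of 26 for TGF-β and BMP, 0 of 21 for interferon and antigen presentation, 0 of 12 for AP-1 and 0 of 13 for mesenchymal genes. Integrins had 4 weakened promoters among 15, and 14 of 199 shared regions weakened and 19 strengthened within 50 kb. Itgb1, the common β1 chain, went from percentile 79.7 to 11.8 in a region that did not pair 1 to 1, Itga5 from 54.9 to 31.2 and Itgb5 from 83.9 to 60.4. The Itga6 region was wider in mets (1686 bp against 1228) although it went from 77.3 to 52.9. Hippo and TEAD genes also had 4, among 17. Tead1, a DNA-binding partner of YAP, went from 59.7 to 38.7, its cofactor Vgll4 from 58.5 to 34.04, the kinase Stk3 from 51.1 to 24.8 and the YAP inhibitor Amotl1 from 34.8 to 11.6 (not paired 1 to 1). Notch genes had 3 among 17, of the ligand Jag1 (61.7 to 40.8), the receptor Notch1 (38.8 to 2.25) and the effector Rbpj (33.7 to 9.62). The Itgb5, Stk3 and Rbpj regions were intronic and lay 947, 904 and 908 bp from a start site, near the limit of 1 kb. Strengthened promoters numbered 1 among the integrins (Itga7) and 0 among Hippo and Notch genes. Within 50 kb, 7.04% of integrin, 7.36% of Hippo and TEAD and 7.66% of Notch shared regions were weakened, beside 7.80% over all coding genes.

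Metabolic genes with a weakened promoter region were Acaca, which makes malonyl-CoA (60.97 to 40.5), and the lipid receptors Ppara (58.4 to 32.6) and Pparg (65.4 to 30.6), and in glycolysis Gpi1 (38.7 to 4.19), Pfkfb3 (46.003 to 14.8) and Pfkp (58.6 to 14.5). The Gpi1 and Pfkp regions did not pair 1 to 1. In glycolysis and hypoxia as many promoters were strengthened (Eno1, Epas1 and Gpi1, the last also weakened), 3 of 24 each way, with 11 of 218 shared regions weakened and 14 strengthened. In the Wnt list they were the receptor Fzd2 (79.3 to 28.3, not paired 1 to 1) and the scaffold Axin1 (66.1 to 34.2). Near genes of the TGF-β pathway, regions 47791 bp from the inhibitor Smad7 and 38505 bp from the tumor suppressor Smad4, both on chromosome 18, went from 70.7 to 21.3 and from 59.8 to 12.3, and one 22817 bp from Ltbp1, whose product binds latent TGF-β, from 63.3 to 8.28. Near cytokine genes, the Lif promoter went from 41.95 to 18.4 and a region 8581 bp from Il33 from 53.3 to 4.54. The Il33 gene had 1 weakened and 4 strengthened regions of 13 and a strengthened promoter. The chemokine, cytokine and NF-κB list had 13 of 204 shared regions weakened and 15 strengthened, with 2 promoters weakened and 3 strengthened (Cxcl5, Il33 and Ptgs2) of 19. Cell cycle genes with a weakened promoter region were Cdk6 (27.9 to 3.68, not paired 1 to 1) and Top2a (70.5 to 43.1).

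**Figure D5:**
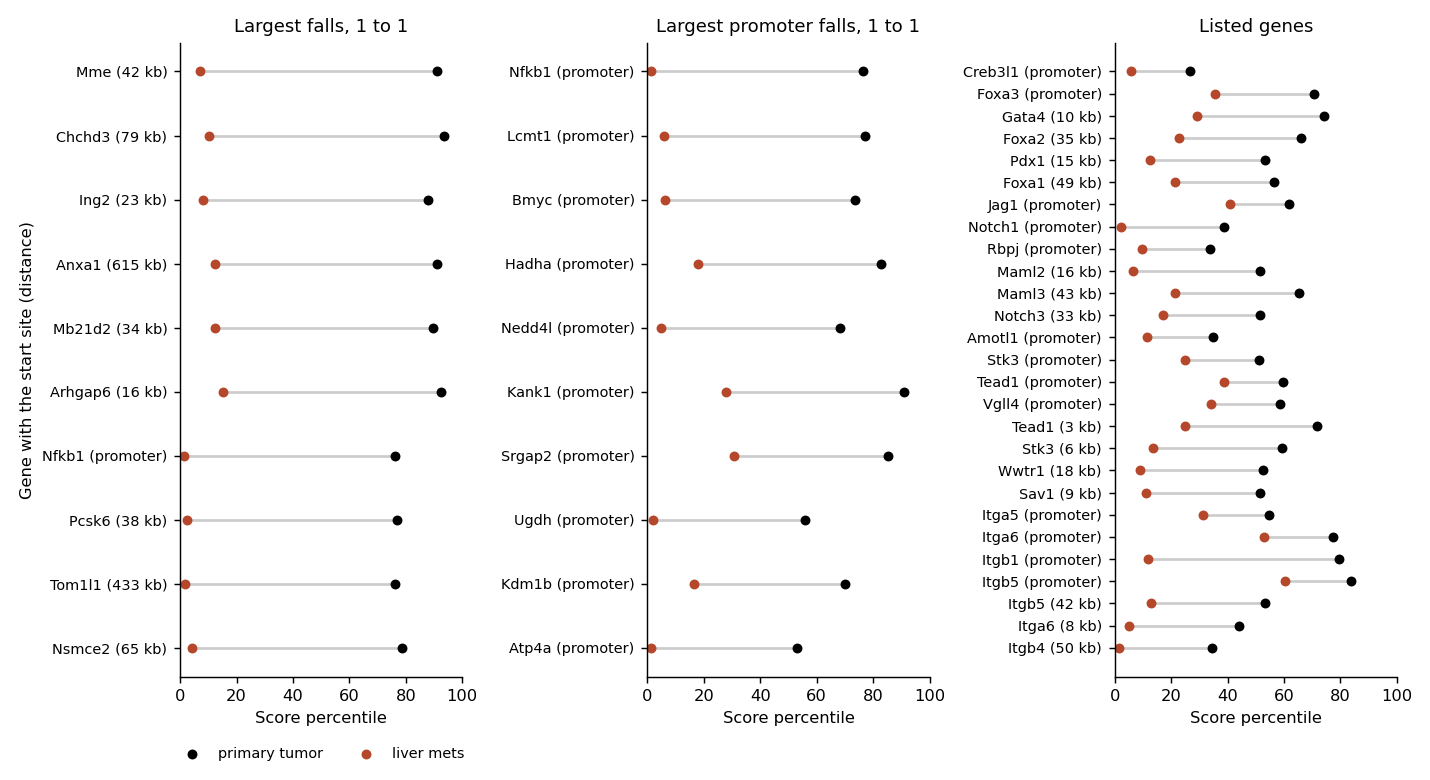
Score percentile in the primary tumor list and the liver mets list, joined by a line, for single weakened regions named by the gene whose start site they lie near. The panels show the 10 largest falls that paired 1 to 1, the 10 largest of these at promoters and regions of endoderm transcription factor, Hippo, Notch and integrin genes; every tumor point lies at a higher percentile than its mets point because the regions were chosen by that fall.

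The human lists gave a readout that the choice of regions did not use. Of the 960 mouse genes with a weakened promoter region, 24 that also had a strengthened one were left out. For the other 936, 744 human genes of the same symbol had a promoter region shared by HPAF-II control and HNF4G-KO. Where a human gene had several such regions, the one with the highest control percentile was used. It need not lie at the start that corresponds to the weakened mouse region, which can be an internal one. Their median change from control to HNF4G-KO was 2.27 points (quartiles -1.67 and 7.47), compared with 1.08 (-1.47 and 5.33) for genes whose mouse promoters were neither weakened nor strengthened. A fall of at least 20 points was found in 11, or 1.48% (0.828 to 2.63), against 1.21% of all 10280 such genes, 1.09% (0.901 to 1.33) of those neither weakened nor strengthened and 3.42% (2.01 to 5.76) of those with strengthened mouse promoters. The share at weakened promoters was near that background. The 11 genes were Fut4 and Piwil4, which share 1 human region, Frmpd1, the signaling adaptor Traf3, Arhgef19, the filopodial motor gene Myo10, Ripor3, Emp2, Obsl1, Tcim and Hal. FUT4 went from percentile 90.6 in control to 51.2 in HNF4G-KO, and mouse Fut4 from 52.7 to 21.7. TRAF3 went from percentile 70.7 in control to 46.3 in HNF4G-KO, and mouse Traf3 from 32.9 to 6.36. MYO10 went from percentile 58.4 in control to 35.1 in HNF4G-KO, and mouse Myo10 from 63.1 to 39.6.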

How the data were processed

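ATAC–seq data were available as 4 region lists in BED format, 1 per group of 4 replicates, as deposited by the authors. The fifth column holds a score given by the authors, whole numbers of unstated scale, which was used only to rank regions. The submitters' processing notes name Bowtie2 2.2.6, MACS2 2.1.1.20160309 and DiffBind without roles; peak threshold, read shift and replicate handling are not given in the sources used here, and the methods of the study describe this assay for HPAF-II but not for KPC cells. A list from deeper libraries holds more weak regions, and rank depends on which regions are listed. All region ends lay inside mm10 chromosomes, and that build was used, with 1-based coordinates.

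Regions were paired by longest overlap (at least 1 bp), and 3 ties were given to the higher score. Percentiles were average ranks among the 62280 pairs. Promoters were regions within 1 kb of a GENCODE vM21 start site (v44 for human), and genes within 50 kb. Sequence was read in the central 300 bp of the tumor region, and 20 consensus sequences were searched on both strands (AP-1 with C or G and KLF with C or T in 1 place; CTCF and HNF1 consensus sequences with ambiguous letters), each beside its letters backwards. Shares have Wilson and differences of shares Newcombe 95% intervals, for counting error only; read depth is unknown. No test was run, because each group has 1 list. Functions were tested on simulated lists and planted sequences. Python 3.11.15, pandas 2.3.3 and scipy 1.17.1 were used.

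Genes named are the 10 largest falls that paired 1 to 1, overall and at coding promoters, the 10 genes with the most weakened regions within 50 kb, list genes with a weakened promoter region and up to 4 more per list, the regions at the threshold, and Hnf4g, Hnf4a, Foxa1, Foxa2, Gata6, Prmt1 and Myc; split regions, neighboring runs, regions with the CTCF sequence and HPAF-II counterparts were named after their values were seen. A few items are not reported here. The regions, gene lists, sequences and comparisons were chosen with earlier results of these data known. Alternatives covered overlap, pairing, threshold, ranking, promoter distance, window and the comparison group.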

Additional observations from a re-analysis of the deposited data

How the results depend on the processing

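The number of weakened regions was 12483 at a threshold of -10, 2203 at -30 and 3187 with percentiles from the whole list, and from 4507 to 5246 in the other 6 alternatives. The log2 score ratio kept 4200 of the 5246 (80.1%).

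The promoter difference (-9.05 points) was negative in all 14 alternatives: -10.6 with 50% reciprocal overlap, -11.4 with 1 to 1 pairs, -11.4 with the highest-scoring piece, -11.6 with whole-list percentiles, -3.00 at a threshold of -10, -12.6 at -30, -7.77 within 500 bp, -10.6 within 5 kb, -11.1 against others at tumor percentile 20 or higher and -6.31 reweighted by tumor percentile and width. The GC difference (-2.00 points) was -1.33 at a threshold of -10 and between -3.00 and -1.33 in the rest.

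The CTCF difference (-3.85) was negative in all 15: -4.22 with whole-list percentiles, -2.81 and -4.28 at thresholds of -10 and -30, -3.32 in 200 bp, -4.39 in the whole region, -4.45 reweighted by tumor percentile and width and -4.89 in distal regions. The AP-1 difference (5.35) was 7.56 with 50% reciprocal overlap, 7.18 with 1 to 1 pairs, 6.97 with the highest-scoring piece, 2.94 at a threshold of -10, 3.68 by log2 score ratio, 2.64 reweighted by tumor percentile and width, 0.193 with GC content added and 3.74 in distal regions. The SP1 difference reversed, to 0.0504, at a threshold of -10.

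The excess on chromosome 8 over the others (6.78 points) was 4.08 with whole-list percentiles, 12.8 and 3.00 at thresholds of -10 and -30, and 0.482 with percentiles within each chromosome; on chromosome 18 (4.66) it was 9.71, 2.87 and 1.61 in the last 3. The deficit on chromosome 13 (-3.78) was -1.93, -7.52 and -1.61, and reversed to 0.102 within each chromosome, where the ranking removes the chromosome-wide shift in rank by construction but not every difference in share. The distal and within-chromosome alternatives were chosen after seeing the data. Neither is a test of a cause, and the cause was not tested.

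No paired analysis was possible because each group has 1 list and no value per replicate, and leaving out a replicate could not be run for the same reason. Read depth is unknown, so how completely either list holds weak regions cannot be stated.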
